A study of Homo sapiens with 2 samples.

Results

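Forkhead box (FOX) genes encode transcription factors that share a winged-helix DNA-binding domain and are named by subfamily letter. The members described here were all genes whose symbol starts with FOX, a letter from A to S and a digit. Each was read by the brightest of its probe sets that carry a single gene symbol. This gave 44 genes of 18132 with such a probe set, and they spanned 18 subfamily letters. All 44 encode proteins. FOXL2NB, a gene next to FOXL2 on chromosome 3, met the naming pattern but is not itself a forkhead factor, and FOXC1, FOXO6 and FOXL3 are among the forkhead genes not analysed here.

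The study measured gene expression in HCT116, an epithelial cell line from a human colorectal carcinoma. One culture was infected with lentivirus carrying a negative-control shRNA (shNC) and another with lentivirus carrying shRNA number 4 against RAP1 (shRAP1), both at a multiplicity of infection of 20 and for 72 h. Each culture gave 1 array, so every difference below compares 1 array with 1 array and has no replicate check, test or p-value. The stated purpose was to learn how RAP1 acts in colorectal cancer cells. The arrays measured RNA from whole cultures, so fewer cells with a transcript and less of it per cell cannot be told apart.

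Values are array intensities on the log2 scale, and every difference is shRAP1 minus shNC on that scale. The floor was the median of all values of both arrays apart from array controls, which was an intensity of 78.0 or 6.29 on the log2 scale. A gene counted as past the floor when at least 1 of its 2 values reached it. Below it, a value near the dim end of the array is hard to tell from background. Levels of different genes are not compared, because probe sets differ in brightness for the same amount of RNA. As a yardstick, each gene was compared with the 4.80% of genes closest to it in brightness, and the SD of their differences is called the SD of like genes below. It is a spread between genes and not an experimental error. Genes were counted at a difference of at least 0.32 in size.

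The labels did not say which RAP1 gene was targeted. TERF2IP, the telomeric protein also called RAP1, had an intensity of 1311 in shNC and 624 in shRAP1, or 47.6% of the control. The brightest probe sets of the GTPase genes RAP1A and RAP1B stood at 88.0% and 93.3%. The arrays correlated at 0.997 across probe sets, and the median difference of all 10437 genes past the floor was 0.010. Of 9 epithelial and colonic markers, 7 were past the floor on the arrays, among them EPCAM, KRT8 and CDX2, while VIL1 and CEACAM5 were below it. The summed intensity of the 9 markers was 34300 in shNC and 34911 in shRAP1. Of 8 leukocyte markers with a probe set, CD68, HLA-DRA and CD79A were past the floor. PTPRC, CD3E, CD14, FCER1G and LCP1 were below it on both arrays. The summed intensities over the 8 genes were 537 in shNC and 590 in shRAP1. Of 10 fibroblast and endothelial markers, VWF and KDR were past the floor, with summed intensities of 418 and 441.

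Different subfamilies of forkhead factors do different work. FOXA proteins open closed chromatin in gut and liver epithelium. FOXO proteins act when insulin and growth factor signalling is low, because the kinase AKT otherwise phosphorylates them and they leave the nucleus. FOXM1 drives the genes of the G2 phase and mitosis in dividing cells, and FOXQ1 is a Wnt-responsive factor often raised in colorectal tumours.

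Of the 44 genes, 20 were past the floor and 24 were below it on both arrays. FOXQ1 and FOXD1 were higher in shRAP1 by at least 0.32, and FOXL2NB was lower by at least that size. Among all genes past the floor, 2.49% were that much higher and 1.92% that much lower. At 1.5-fold, FOXQ1 alone was higher and no member lower, against 0.211% and 0.172% of all genes. By any amount, 15 of the 20 were higher and 5 lower (median 0.092), against 53.2% of all genes higher and 46.8% lower. FOXQ1, FOXF1 and FOXL2NB were past the floor on 1 array only. Among the 17 with both values past it, 13 were higher and 4 lower (median 0.083). For 10 of the 20 (8 higher and 2 lower), the difference exceeded 1 SD of like genes, as it did for 29.2% of all genes. For 2, FOXQ1 and FOXD1, it exceeded 2 SD, against 4.81% of all genes. Moving with the count of higher genes, the array's background control probe sets of GC classes 16 to 25 were higher in shRAP1 in 10 of 10 cases, with a median of 0.11. Those of classes 3 to 15 were higher in 3 of 13, with a median of −0.025. Their part in the forkhead differences was not tested.

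**Figure D1:**
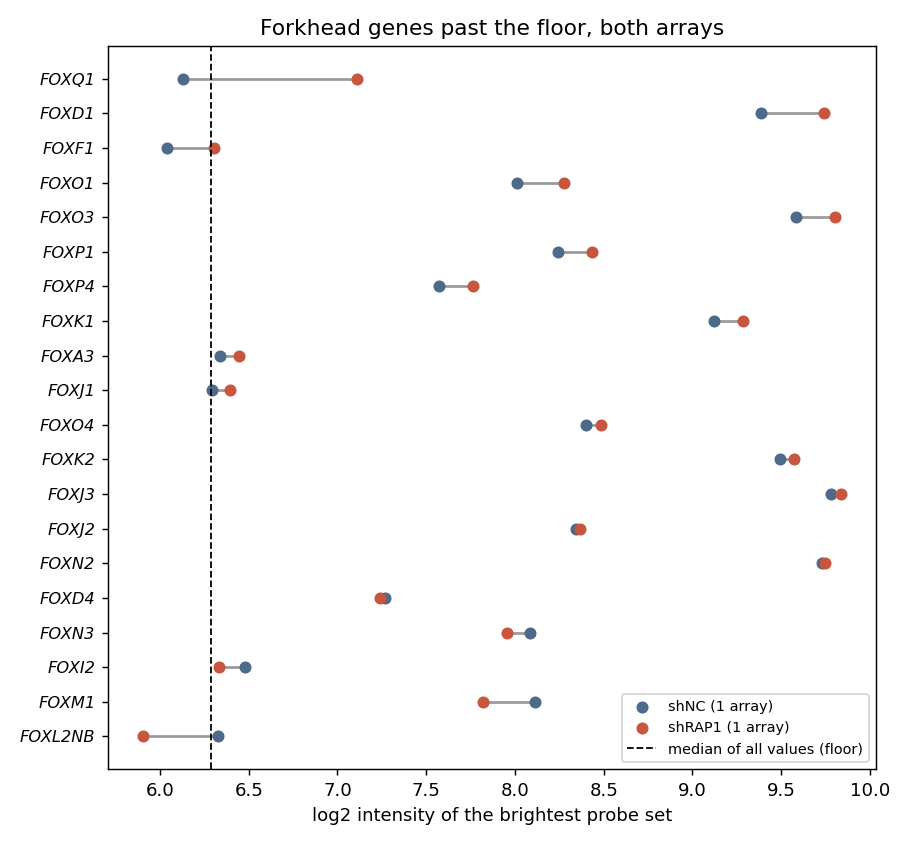
Log2 intensity (x axis) of the brightest probe set of the 20 forkhead-pattern genes past the floor, ordered by difference, with 1 point for each array and a dashed line at the floor of 6.29. FOXQ1 shows the widest gap, from 6.13 in shNC to 7.11 in shRAP1, and most other pairs of points lie close together.

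FOXQ1 had the largest difference of the family. Its log2 value was 6.13 in shNC and 7.11 in shRAP1, or intensities of 70.0 and 138. The shNC value lay below the floor and the shRAP1 value above it. The difference of 0.98, 1.98-fold, was 5.45 times the SD of like genes and ranked 3 from the top among 10437 genes. Because the shNC value lay below the floor, its size is uncertain. Against the floor in place of that value the difference was 0.83, or 1.77-fold, which was 4.58 times that SD and would rank 5. For that rank only FOXQ1 was set against the floor, and all other genes kept their own differences. FOXQ1 had a second probe set, dimmer and below the floor on both arrays, which read 4.03 in shNC and 5.01 in shRAP1. Both probe sets thus gave a difference of 0.98. The brighter one belongs to the _s_at class, whose probes may bind several transcripts, and the dimmer one does not.

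The region around the annotated start of FOXQ1 is shown because this gene carried the family's largest difference. The RefSeq sequence runs from 250 bases before the start to 50 after it (GRCh38.p14, chr6:1311848-1312147, plus strand). Capitals mark ATTGG, the reverse complement of the CCAAT box.
FOXQ1: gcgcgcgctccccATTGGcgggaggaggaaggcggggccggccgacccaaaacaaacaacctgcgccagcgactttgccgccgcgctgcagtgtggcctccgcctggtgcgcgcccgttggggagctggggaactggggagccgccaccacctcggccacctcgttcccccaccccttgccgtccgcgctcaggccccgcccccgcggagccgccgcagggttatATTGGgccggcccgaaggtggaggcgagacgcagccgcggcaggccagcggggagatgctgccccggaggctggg
The first match begins 237 bases before the start and the second 25 bases before it. CCAAT or ATTGG occurred in 35.7% of all 27305 promoter windows of this length, so its presence does not set FOXQ1 apart. The GC content of the FOXQ1 window was 74.7%.

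FOXD1, a factor of kidney stroma and of retinal patterning in development, was the other member past the floor that reached the counted size in the upward direction. It read 9.39 in shNC and 9.74 in shRAP1, intensities of 669 and 854, both far above the floor. The difference of 0.35, 1.28-fold, was 2.57 times the SD of like genes. It rested on 1 probe set. The median difference of like genes was 0.00046.

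The 3 FOXO genes past the floor were all higher in shRAP1. FOXO1, which switches on gluconeogenic and cell-cycle arrest genes, read 8.01 in shNC and 8.27 in shRAP1. Its difference of 0.26 was 1.61 times the SD of like genes. A second FOXO1 probe set past the floor went from 6.42 to 6.75, a difference of 0.33. The 2 FOXO1 probe sets below the floor gave 0.18 and −0.082. FOXO3, a stress-resistance factor, read 9.58 and 9.80, a difference of 0.22 or 1.64 times that SD. Its other single-symbol probe sets differed by 0.21 and 0.0083. All 3 have names ending in _x_at, the mark of probes that can cross-match similar sequences, and 5 further probe sets carry both FOXO3 and its near copy FOXO3B. Those 5 differed by −0.0048 to 0.22, with a median of 0.18. FOXO4 read 8.40 and 8.48, a difference of 0.083. Both of its dimmer probe sets past the floor were also higher, by 0.22 and 0.24. The 4 below the floor ranged from −0.074 to 0.16. Across FOXO1, FOXO3 and FOXO4, 8 of 8 single-symbol probe sets past the floor were higher, against 49.4% of all such probe sets. These 8 repeat only 3 genes, and none of the brightest ones reached a difference of 0.32.

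Among the forkhead factors past the floor, FOXM1 had the lowest difference. Its log2 value was 8.12 in shNC and 7.82 in shRAP1, intensities of 277 and 226. The difference of −0.30 was −1.95 times the SD of like genes and ranked 257 from the bottom of 10437. The other 2 FOXM1 probe sets, both past the floor, read 7.51 and 7.37, and 6.92 and 6.78, and each differed by −0.14. All 3 probe sets were lower, the 2 dimmer ones by a smaller amount.

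The FOXP genes, whose proteins pair through a leucine zipper and mostly repress transcription, were slightly higher where past the floor. FOXP1, which guides B cell and lung development, read 8.24 in shNC and 8.44 in shRAP1, a difference of 0.19. FOXP1 had 12 single-symbol probe sets. The 4 past the floor differed by 0.0036 to 0.19, and 9 of the 12 were higher. FOXP4, a relative active in gut and lung epithelium, read 7.57 and 7.76, a difference of 0.19, and a second probe set gave 0.15. FOXP2, known from speech circuits, and FOXP3, the factor of regulatory T cells, were below the floor on both arrays.

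FOXK1 and FOXK2 proteins restrain autophagy genes and bind the deubiquitinase BAP1. FOXK1 read 9.12 in shNC and 9.29 in shRAP1, a difference of 0.16 on a probe set ending in _s_at. FOXK2 read 9.49 and 9.57, a difference of 0.077, and its other probe set differed by 0.14. The SD of like genes was 0.14 for each, so FOXK1 was higher by 1.15 times that SD and FOXK2 by 0.56 times.

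For some members the difference was small. FOXJ2 read 8.35 in shNC and 8.36 in shRAP1, and FOXJ3 read 9.78 and 9.84. FOXN2 read 9.73 in shNC and 9.75 in shRAP1, while a dimmer probe set below the floor differed by 0.42. FOXD4, whose near-identical copies make its signal uncertain, read 7.27 and 7.24. A probe set shared by FOXD4 and 3 such copies differed by 0.22. In all, 6 of the 20 genes differed by less than 0.1 in size, against 52.3% of all genes past the floor.

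FOXN3, a repressor linked to the cell-cycle checkpoint, was the only one of 8 members with several probe sets past the floor whose probe sets disagreed in sign. Its brightest probe set read 8.08 in shNC and 7.96 in shRAP1, a difference of −0.13. The other 2 were at 0.10 and 0.23, so FOXN3 has no settled direction. The other 7 kept one sign, as did 60.2% of the 6135 genes of that kind on the arrays. Of 34 forkhead probe sets past the floor, which belong to 20 genes and so repeat some of them, 27 were higher and 7 lower, against 49.4% higher of all 23141 single-symbol probe sets past it.

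Members near the floor carry the least certain differences. FOXF1, a factor of gut and lung mesenchyme, read 6.04 in shNC and 6.30 in shRAP1, so it passed the floor by its shRAP1 value alone. FOXA3, a factor of liver and gut, read 6.34 and 6.44, and FOXJ1, the master factor of motile cilia, read 6.29 and 6.39. FOXI2 went the other way, from 6.48 to 6.33. FOXL2NB read 6.33 in shNC and 5.90, below the floor, in shRAP1, a difference of −0.42. Its 2 dimmer probe sets differed by −0.0046 and 0.15, and its neighbour FOXL2 was below the floor at 3.41 and 3.40. The members just outside the floor were FOXL1, FOXD2 and FOXB2, whose higher values were 6.11, 6.06 and 5.98.

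**Figure D2:**
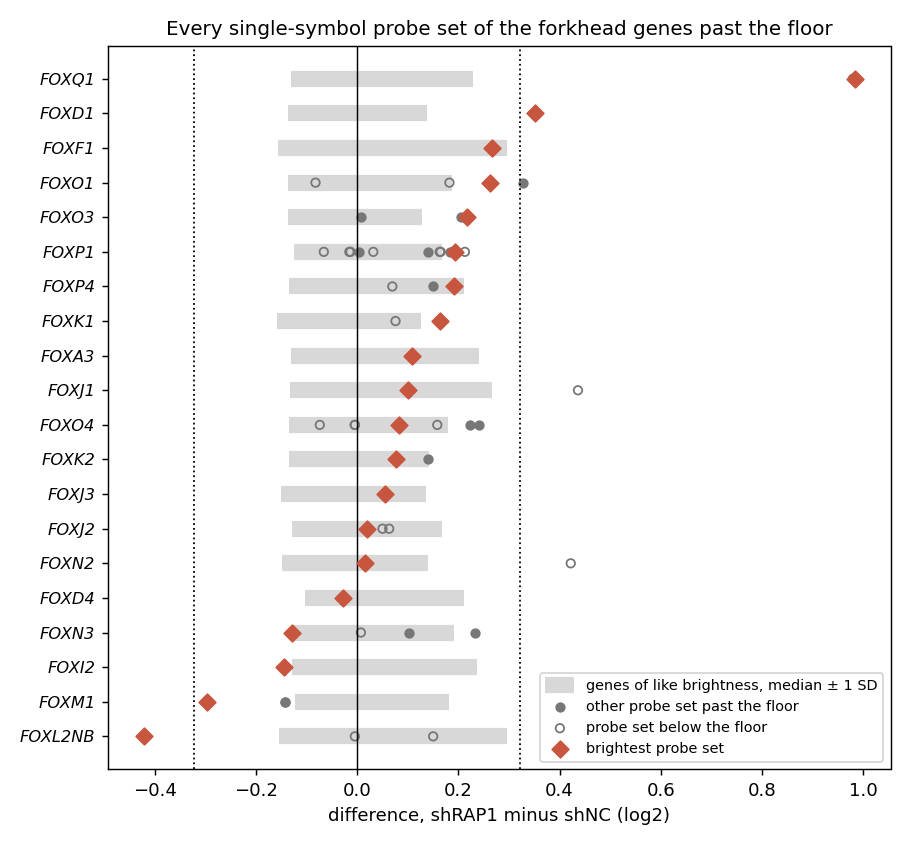
Difference between shRAP1 and shNC on the log2 scale (x axis) of every single-symbol probe set of the 20 genes past the floor. Diamonds are the brightest probe sets, filled circles others past the floor and open circles those below it. Grey bars give the median ± 1 SD of like genes in brightness, and dotted lines mark 0.32 in size. The FOXQ1 probe sets coincide at 0.98, all those of FOXM1 lie below 0, and those of FOXN3 lie on both sides of it.

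The 24 members below the floor had log2 values of 3.15 to 6.06 in shNC and 3.35 to 6.11 in shRAP1. They were FOXA1, FOXA2, FOXB1, FOXB2, FOXC2, FOXD2, FOXD3, FOXD4L1, FOXD4L5, FOXE1, FOXE3, FOXF2, FOXH1, FOXI1, FOXI3, FOXL1, FOXL2, FOXN1, FOXN4, FOXP2, FOXP3, FOXR1, FOXR2 and FOXS1. Of these, 10 were higher and 14 lower (median −0.055), against 55.9% higher and a median of 0.025 among all 7695 genes below the floor. Differences of at least 0.32 in size were seen for 3 of the 24 (12.5%), near the 9.53% of all genes below the floor. FOXA2, an endoderm factor, read 5.28 in shNC and 4.84 in shRAP1. FOXB1, of the developing brain, read 4.42 and 4.07, and FOXI1, of acid-secreting epithelial cells, 4.72 and 5.09. With both values that dim, the sizes are uncertain. FOXA1, a gut and breast epithelial factor, stood at 5.44 and 5.60.

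**Figure D3:**
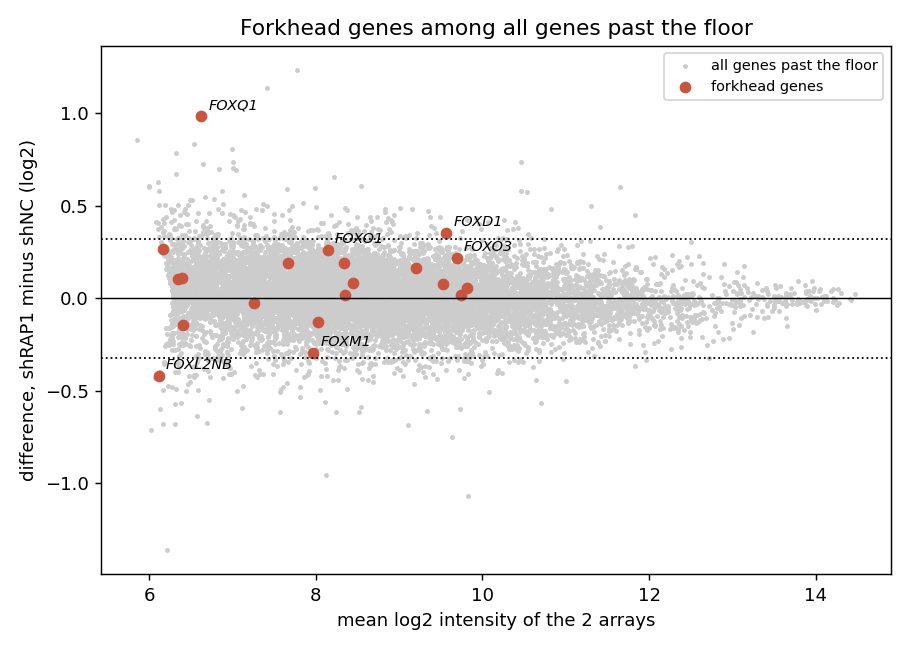
Difference between shRAP1 and shNC (y axis, log2) against the mean log2 intensity of the 2 arrays (x axis) for 10437 genes past the floor in grey and the 20 forkhead-pattern genes in red. Dotted lines mark 0.32 in size. FOXQ1 at 0.98 stands outside the cloud of genes, FOXD1 at 0.35 at its upper edge and FOXM1 at −0.30 near its lower edge.

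The promoter windows of 34 of the 44 members were matched by symbol in the RefSeq table. Their median GC content was 67.8%, against 58.3% over all 27305 windows, and it was 71.2% for the 16 members past the floor. The forkhead recognition word GTAAACA, searched on both strands as GTAAACA or TGTTTAC, was found in 1 of the 34 windows (2.94%) and in 3.41% of all windows. That window was FOXO4's, where the word begins 23 bases after the start. The word TTAGGG, the repeat unit of the telomeres that TERF2IP protects, was found on either strand (as TTAGGG or CCCTAA) in 2 of the 34 windows (5.88%) and in 8.94% of all windows. These were FOXI2, 250 bases before the start, and FOXP4, 237 bases before it. The stretches below show the words in capitals with up to 20 flanking bases inside the window, on GRCh38.p14 and the plus strand (FOXO4 chrX:71095854-71095900, FOXI2 chr10:127736935-127736960, FOXP4 chr6:41546131-41546169).
FOXO4: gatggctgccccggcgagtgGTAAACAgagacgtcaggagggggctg
FOXI2: TTAGGGtccctgcaaccaagaccgcg
FOXP4: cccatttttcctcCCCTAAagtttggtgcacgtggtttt
The other words searched were CCAAT, found in 9 of the 34 windows (26.5%), and TTTGAA (or TTCAAA on the other strand), an element of cell-cycle promoters, found in 7 (20.6%) and in 15.4% of all windows. Past the floor, the windows with TTTGAA were those of FOXJ3 and FOXN3. Of the 2 genes with the telomeric word, FOXI2, near the floor, was lower by 0.15 in size and FOXP4 higher by 0.19. These were −0.79 and 1.11 times the SD of like genes, and any part of the word in them was not tested. FOXM1 had no window in the table.

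Genes known to act with forkhead factors were then read from lists. For each list, the counts stand against 53.2% of all genes past the floor higher and 46.8% lower. By at least 0.32, 2.49% of all genes were higher and 1.92% lower. Of 35 listed FOXM1 targets, all were past the floor, with 28 lower, 7 higher and a median of −0.11 against 0.010 over all genes. KIF4A, a chromosome-bound kinesin, was the 1 member past 0.32 in size, with 8.47 in shNC and 8.10 in shRAP1, although its other probe set differed by −0.039. KIF14, a kinesin of cytokinesis, differed by −0.28 with its other probe set at 0.16. CCNA2, a cyclin of S phase and mitosis, stood at −0.25 with a second probe set at −0.32. KIF20B and CCNB1, a mitotic cyclin, stood at −0.235 and −0.228, each on 1 probe set. Of the 7 higher, TOP2A differed by 0.14, with its probe sets between −0.22 and 0.14, and SKP2 by 0.13. FOXM1 itself differed by −0.30. The list was chosen with earlier results of these arrays known, so its direction is not independent evidence.

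Of 33 listed FOXO targets, 24 were past the floor, with 15 higher, 9 lower and a median of 0.054. BCL6, a transcriptional repressor of germinal centre B cells, was past that size, with 8.76 in shNC and 9.25 in shRAP1. Its 4 probe sets past the floor differed by 0.19 to 0.49. INSR, the insulin receptor, differed by 0.26, and all 5 of its probe sets past the floor were higher, by at least 0.12. KLF2, a zinc finger factor, and SESN1, a stress-induced inhibitor of mTORC1, went the other way, with −0.24 and −0.23. TXNIP, PDK4 and TNFSF10, often used as FOXO readouts, were below the floor. The listed FOXO targets therefore did not share one direction.

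Of 34 listed FOXO regulators, 28 were past the floor, with 13 higher, 15 lower, none past that size and a median of −0.025. XPO1, the exportin that carries FOXO proteins out of the nucleus, read 10.68 in shNC and 10.40 in shRAP1, and its 4 probe sets past the floor differed by −0.28 to −0.080. The FOXO kinase SGK1, at 6.80 in shNC and 6.56 in shRAP1, differed by −0.24. Its 3 probe sets past the floor lay between −0.24 and 0.021. AKT1 differed by 0.23, with its other probe set at 0.28. MDM2, a ubiquitin ligase, differed by −0.22, with 6 probe sets past the floor between −0.22 and 0.15.

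Of 29 listed FOXA partners and targets, 11 were past the floor, with 9 higher, 2 lower and a median of 0.12, against 53.2% of all genes higher. With no floor, 14 of the 24 that have a probe set were higher and 10 lower, and the median was 0.031. KLF5, a factor of proliferating crypt epithelium, was past that size, with 9.70 in shNC and 10.14 in shRAP1 and 3 probe sets between 0.18 and 0.43. SPDEF, a goblet cell factor, differed by 0.28, MIPOL1, the gene beside FOXA1, by 0.19, and the keratin gene KRT20 by −0.15. AGR2, TFF1, TFF3 and MUC2, secretory genes, were below the floor.

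Of 33 listed cofactors of forkhead proteins, 31 were past the floor, with 18 higher, 13 lower and a median of 0.035. RB1, the retinoblastoma tumour suppressor, differed by −0.36 to a value of 7.64 in shRAP1, and its other probe set was at −0.18. SAP30, of the SIN3 corepressor complex, differed by −0.34, with its other probe set at −0.032. TLE1, a Groucho-type corepressor whose shNC value was below the floor, differed by 0.320, just under the counted size of 0.322 before rounding. RB1 and SAP30 alone reached that size, and TLE3 differed by 0.27 with its other probe set at −0.037. The direction of the cofactor median was not stable, and it was −0.027 with the floor at the 75th percentile and −0.0018 without the _x_at and _s_at classes.

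**Figure D4:**
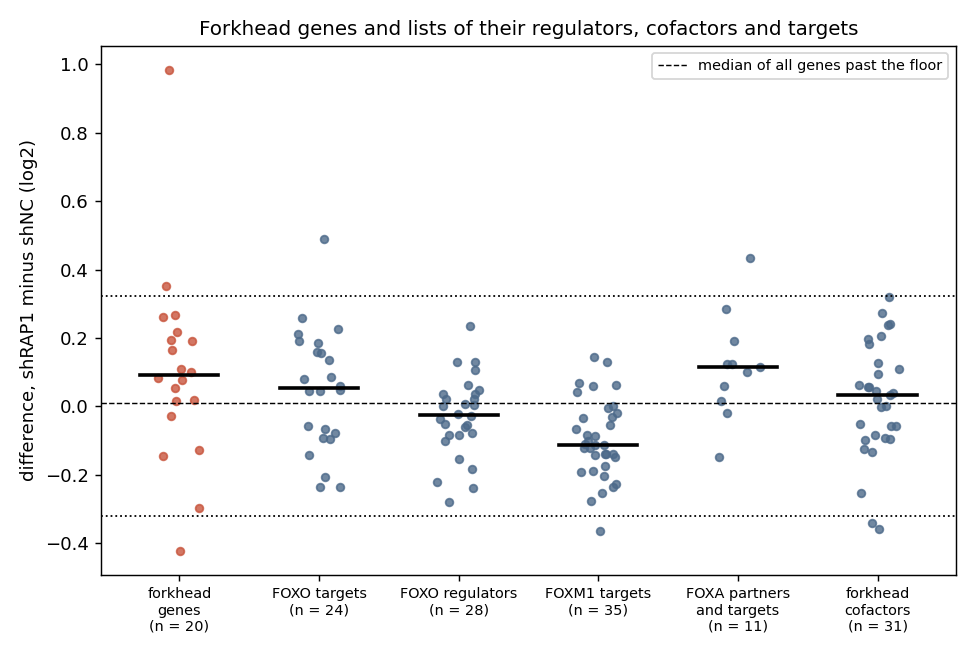
Difference between shRAP1 and shNC (y axis, log2) of each gene past the floor in 6 sets (x axis): the 20 forkhead-pattern genes and 5 lists of regulators, cofactors and targets. Black bars are medians, the dashed line is the median of all genes, 0.010, and dotted lines mark 0.32 in size. The FOXM1 targets sit lowest, with a median of −0.11, and the FOXA partners and targets highest, at 0.12. Every set holds genes on both sides of 0.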

How the data were processed

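Total RNA from both HCT116 cultures was extracted with Trizol and labelled with an Affymetrix 3′ in vitro transcription kit, per the labels' protocols. The authors deposited 1 intensity per probe set and array, made with RMA per the submitters' processing notes, with no version given in the sources used here. Values reached 25726, so they are linear and not log2. No sequencing depth applies, and the number of arrays (1 per group) limits the precision. Quantile normalisation, a step of RMA, makes all differences relative to other genes.

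Without array controls there were 49293 probe sets, and the platform annotation gave 1 gene symbol to 44988, several to 1832 and none to 2473. Intensities were converted to log2 with no pseudocount. Each gene took its single-symbol probe set with the highest mean log2 value. No tests were run. All members past the floor are named, and of each list the genes past 0.32 in size or those with the largest differences, with a few others chosen after their values were seen. The members and lists were chosen with earlier results of these data known. Alternatives changed the probe set rule, the floor, the centring (median, or lowess with a span of 0.3), the size counted and the summary. The computation was tested on simulated data. Python 3.11.15, numpy 2.4.6, pandas 2.3.3, statsmodels 0.14.6 and matplotlib 3.10.9 were used.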

Additional observations from a re-analysis of the deposited data

How the results depend on the processing

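Each result was recomputed with other probe set rules, floors, centring and summaries. No paired analysis was possible because each group holds 1 array, and for the same reason no replicate could be left out. Members higher by at least 0.32 numbered 2, and 3 with no floor and 1 under each of 4 alternatives: a size of 1.5-fold, both values required past the floor, a floor at the 75th percentile, and no _x_at or _s_at probe sets, where FOXQ1 has none past the floor. Members lower by that size numbered 1, and 0 under the first 3 of these, 2 with lowess-centred differences and 3 with no floor. The members past the floor numbered 20, and 9 under the higher floor and 44 under none. The forkhead median stayed above 0 throughout, from 0.019 with no floor to 0.11 with the median of all probe sets. The 0.019 is close to the background, as the median was 0.010 for all genes past the floor and 0.025 for those below. The cofactor median changed sign as given above (−0.027 and −0.0018). Of 141 values of single members, 137 stayed within 1 SD of genes of like brightness and kept their sign. Changes of floor left each value as it was, and centring on the median moved all by 0.010. Many of the 137 could therefore hardly differ, and their count is no measure of stability. FOXN3 turned to 0.10 with the median of all probe sets and without those 2 classes, FOXJ2 to −0.0023 with lowess centring, and FOXM1 shrank to −0.14 with the median of its probe sets. FOXQ1 ranged from 0.93 to 0.98 over the 5 alternatives that gave it a value, and only the centrings changed it.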
